A study of Mus musculus with 6 samples.

Results

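The 10 apolipoprotein genes Apoa1, Apoa2, Apoa4, Apoa5, Apob, Apoc1, Apoc2, Apoc3, Apoe and Apoh were followed in livers without chromogranin A, the granule protein of neuroendocrine cells from which several peptides are cut. The members were all probe sets that the platform annotation assigned to one of these symbols alone, 14 of 22626 probe sets in all. Apoa1 had 4 probe sets and Apoa4 had 2, while each of the other genes had 1. All 14 passed the filter on dim probe sets, which kept 13576. The groups were Chga_KO, chromogranin A knockout males, and WT, wild-type control males, all aged 12 weeks, with 3 livers in each and 1 Affymetrix array per liver. The labels cite an earlier description of the strain and give neither the genetic background of the WT mice nor feeding state or hour of dissection. Values are probe set intensities in arbitrary units. As deposited, the trimmed mean of each array lay between 2501.32 and 2501.42, and the scaling behind this is not stated in the sources used here.

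Apolipoproteins are the protein parts of lipoprotein particles, which carry triglyceride and cholesterol through blood. Apob is the structural protein of very low density lipoprotein, and Apoa1 and Apoa2 are the main proteins of high density lipoprotein. The smaller proteins move between particles and set how quickly lipoprotein lipase and the hepatic receptors act on them. The liver makes most of the plasma supply of these proteins, and the small intestine makes part of the supply of Apoa1, Apoa4 and Apob. By the RefSeq gene table, Apoa1, Apoc3, Apoa4 and Apoa5 lie next to one another on mouse chromosome 9, and Apoe, Apoc1 and Apoc2 on chromosome 7.

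The probe set of Chga averaged 112 ± 103 in knockout liver and 132 ± 77.7 in wild-type liver (SD, n = 3 each). At the 17.9th percentile by brightness, it does not check the group labels. Genes of other proteins that hepatocytes secrete, such as albumin, had a median percentile of 99.8 over 26 probe sets. Markers of intestinal epithelium had a median percentile of 7.57 over 7 probe sets. Of these only Fabp2, a fatty acid binding protein, passed the filter, at the 90.5th percentile. Markers of bile duct cells (7 probe sets) had a median percentile of 25.1, and none passed the filter.

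The sequences before the start sites of 3 genes of the chromosome 9 cluster are shown because these genes lie beside Apoc3, the member with the largest positive change, and because Apoa4 among them varied most between livers. Each run is the 250 bases before the most upstream start site listed for the gene. It is read 5′ to 3′ on the plus strand from RefSeq, build GRCm38.p6. Capitals mark matches on either strand to CAAAGNNCA, the core of many sites of the hepatocyte factor HNF4, to TATAAA, and to CACGTG, an E-box.
Apoa1, chr9:46228380-46228629: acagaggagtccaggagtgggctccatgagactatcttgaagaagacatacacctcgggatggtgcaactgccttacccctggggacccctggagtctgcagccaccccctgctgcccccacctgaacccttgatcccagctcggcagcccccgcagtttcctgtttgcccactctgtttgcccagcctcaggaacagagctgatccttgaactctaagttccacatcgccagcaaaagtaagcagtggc
Apoa4, chr9:46240594-46240843: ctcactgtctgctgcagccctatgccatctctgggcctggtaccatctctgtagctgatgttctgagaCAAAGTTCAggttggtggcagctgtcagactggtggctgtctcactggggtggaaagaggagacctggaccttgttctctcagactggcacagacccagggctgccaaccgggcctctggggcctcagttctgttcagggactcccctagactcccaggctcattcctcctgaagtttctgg
Apoa5, chr9:46268358-46268607: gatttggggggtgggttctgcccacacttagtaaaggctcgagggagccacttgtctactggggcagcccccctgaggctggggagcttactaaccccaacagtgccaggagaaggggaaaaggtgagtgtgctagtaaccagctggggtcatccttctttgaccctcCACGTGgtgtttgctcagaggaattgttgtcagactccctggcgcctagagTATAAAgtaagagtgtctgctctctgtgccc
The window of Apoa4 held 1 match to CAAAGNNCA, which begins 182 bases before the start site. That of Apoa5 held TATAAA at 31 bases and CACGTG at 82 bases before the start site. The Apoa1 window held no match to these 3 motifs. Windows before other start sites of a gene were not searched, and sites that depart from these patterns were not counted. A window without a match thus does not show that a promoter lacks such sites. Over 27025 genes with such a window, 5.46% held CAAAGNNCA, 13% TATAAA and 6.04% CACGTG. Entries were found for 8 of the 10 members, and Apoc1 and Apoc3 had none. Among the members not shown, the Apob window held CAAAGNNCA and TATAAA and the Apoh window held CAAAGNNCA. The windows of Apoa2, Apoc2 and Apoe held no match.

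The members were among the brightest probe sets of the arrays. In the mean over the 6 arrays, 5 of the 14 lay among the 10 brightest probe sets, 9 among the 100 brightest and 13 among the 1000 brightest. Their best mean rank was 2, for Apoa1, and their lowest was 1257, for the dimmer probe set of Apoa4. Together they held 1.99%, 2.29% and 2.15% of the summed intensity of the knockout arrays and 1.97%, 1.87% and 2.01% of that of the wild-type arrays. Brightness depends on the probes as well as on the transcript, so these ranks do not order the genes by RNA amount.

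The design asks which liver transcripts differ once chromogranin A is missing. For the apolipoproteins, 0 of 14 probe sets passed limma with Benjamini-Hochberg adjustment over all kept probe sets, where 0.376% of those 13576 passed. At an unadjusted p under 0.05 there were 4 members, 2 of Apoa1 and 1 each of Apoa2 and Apoc3, beside 9.97% of all kept probe sets. This count of 4 was 7 without knockout replicate 1, 2 without knockout replicate 3, and 1 without knockout replicate 2, wild-type replicate 1 or wild-type replicate 2. It was also 1 after quantile normalization or cyclic loess, without the filter and without the intensity trend, and the 1 member left in each of these was Apoc3. Of the 14 changes 11 were positive and 3 negative, with a median log2 change of 0.14 against -0.018 over all kept probe sets. Log2 changes here are knockout minus wild type of log2(intensity + 16), and errors are standard errors of the fit (n = 3 per group). The members' intensities ran over more than a decade, from the 4 probe sets of Apoa1 down to Apoa4 and Apoc2, as the plot of values by array shows.

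**Figure D1:**
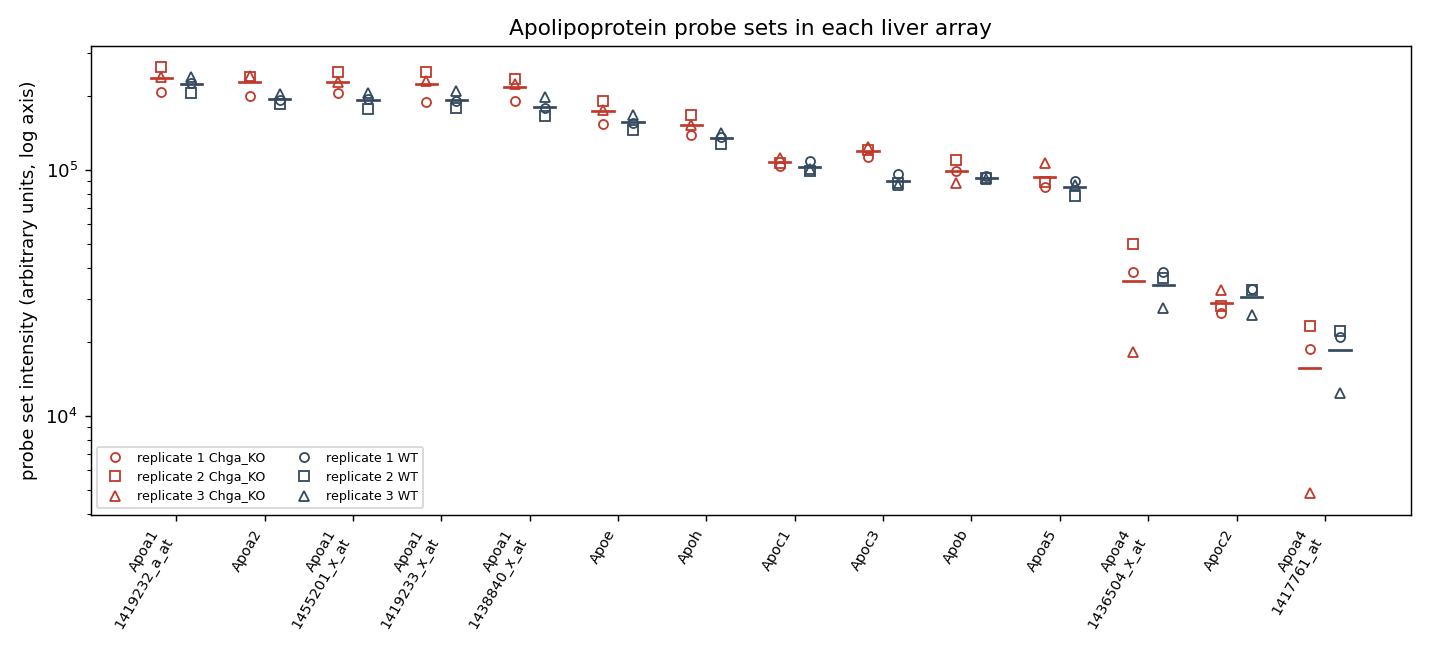
Intensity (arbitrary units, log axis) of the 14 apolipoprotein probe sets, ordered by mean brightness, in 3 knockout arrays (red, left of each pair) and 3 wild-type arrays (dark blue). Symbols are single arrays and bars are group means; the groups are apart for Apoc3, and Apoa4 has its lowest value in knockout replicate 3.

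Apoc3, an inhibitor of lipoprotein lipase and of particle uptake by the liver, had the largest positive change of the family. It read 113059, 120005 and 123626 in knockout liver and 96033, 88243 and 87041 in wild-type liver. Every knockout array was above every wild-type array, as for 1 of the 14 members and for 7.44% of all kept probe sets. Among the 91 other probe sets of the 100 brightest, the share was 19.8%. In contrast, 0 members had every knockout array below, as 8.12% of kept probe sets did. The log2 change was 0.40 ± 0.079, or 31.5% higher with a 95% interval of 16.5% to 48.4%, and it did not pass over all probe sets (limma, adjusted p = 0.0668). Under the alternatives tried, the change lay between 0.28 and 0.44 and the adjusted p between 0.0504 and 0.411. Ranked by brightness within each array, a description that needs no scaling between arrays, Apoc3 was 70th, 79th and 71st in knockout and 107th, 118th and 142nd in wild-type arrays. Apoc3 thus stood higher in the order of probe sets in each knockout array than in any wild-type array.

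Its neighbours on chromosome 9 were described next. Apoa5, which aids lipolysis by lipoprotein lipase and so acts opposite to Apoc3, read 85579, 89115 and 106427 in knockout liver and 89738, 78648 and 86445 in wild-type liver. The groups of Apoa5 overlapped, and its log2 change was 0.14 ± 0.099 (limma, adjusted p = 0.689). The 95% interval of the Apoa5 change, from -5.49% to 28.0%, includes both no change and a rise of about the size measured for Apoa2.

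Apoa1 was measured by 4 probe sets that did not move alike. The brightest of them read 208071, 261360 and 238449 in knockout liver and 224873, 205028 and 238585 in wild-type liver, a log2 change of 0.079 ± 0.097. The 3 others, whose names end in x_at, the array maker's mark for probes that may also bind related sequences, had changes of 0.20, 0.24 and 0.26. Within each array the brightest exceeded the mean of the others by 0.095, 0.097 and 0.069 log2 units in knockout liver and by 0.26, 0.24 and 0.22 in wild-type liver. This difference between probe sets of 1 gene was smaller in every knockout array, at 0.087 ± 0.016 against 0.24 ± 0.022 in wild-type arrays (SD, n = 3 each; two-sided exact permutation p = 0.1, the smallest that 3 against 3 arrays allow). With the 4 averaged, Apoa1 stood at 0.19 ± 0.099 (limma, adjusted p = 0.560).

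Apoa4, a protein of intestinal and hepatic particles in mice, was the most variable member. Its brighter probe set read 38426, 49789 and 18224 in knockout liver and 38571, 36448 and 27393 in wild-type liver. The name of this brighter probe set also ends in x_at, and that of the dimmer one does not. Its dimmer probe set read 18642, 23298 and 4847 in knockout liver and 20964, 22230 and 12389 in wild-type liver. Both probe sets were lowest in replicate 3 of each group, and the dimmer one spread further. The dimmer minus the brighter was -1.35 ± 0.48 log2 units in knockout and -0.91 ± 0.22 in wild-type arrays (SD, n = 3 each, two-sided exact permutation p = 0.3). The knockout minus wild-type changes of the brighter and the dimmer probe set were -0.048 ± 0.29 and -0.48 ± 0.47 (limma, adjusted p = 0.977 and 0.778). Without knockout replicate 3 both were positive, at 0.37 and 0.22. The wide 95% interval of the dimmer probe set, from -65.3% to 47.2%, leaves the direction of Apoa4 undetermined in these 6 livers.

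Among the other genes of high density lipoprotein, Apoa2 read 200475, 238440 and 241426 in knockout liver and 192004, 185338 and 204291 in wild-type liver. Knockout replicate 1 lay below wild-type replicate 3, so the groups overlapped. The log2 change of Apoa2 was 0.22 ± 0.089 (limma, adjusted p = 0.445), with a 95% interval of 1.80% to 33.7% before any adjustment.

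Apob, which gives each very low density particle its scaffold, read 98961, 109912 and 88377 in knockout liver and 94039, 93096 and 91699 in wild-type liver. The coefficient of variation was 10.9% for the knockout values, which fell on both sides of the wild-type ones, and 1.27% for the wild-type values. The change of Apob was 0.087 ± 0.090 (limma, adjusted p = 0.797), with a 95% interval of -7.53% to 21.9%.

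Apoe, the ligand by which the hepatic receptors take up remnant particles, is made by hepatocytes and also by macrophages and stellate cells. It read 153343, 189905 and 175669 in knockout liver and 155041, 145880 and 166808 in wild-type liver, a change of 0.15 ± 0.094 (limma, adjusted p = 0.649). The groups overlapped, since knockout replicate 1 lay below wild-type replicates 1 and 3. Of 18 kept probe sets of Kupffer cell and macrophage markers, 2 were higher and 16 lower in knockout liver, with 0 called by limma (0 also at an unadjusted p under 0.05) and a median of -0.20. Their intensities over 20 probe sets summed to between 35804 and 48333 in knockout liver and between 41139 and 53470 in wild-type liver. Of the defining markers, Marco was at the 4.11th percentile and Clec4f, a marker of Kupffer cells, at the 79.4th. Of 11 kept probe sets of stellate cell markers, 1 was higher and 10 lower, with 0 called (2 at an unadjusted p under 0.05) and a median of -0.17; the summed level of 21 probe sets ran from 31517 to 37447 in knockout and from 33609 to 44162 in wild-type liver. Over all kept probe sets, 6356 were higher and 7220 lower in knockout liver, and 9.97% were at an unadjusted p under 0.05 (limma). The median percentile by brightness was 70.5 for the macrophage list and 44.5 for the stellate list. Of probe sets at brightness ranks 4001 to 8000, 40.5% were higher, with a median change of -0.053. At ranks 8001 to 13576, 46.7% were higher, with a median of -0.028. The part of macrophages and stellate cells in the Apoe signal was not tested. Whole liver values cannot tell a difference in the number of cells of a type from one in RNA per cell.

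The C apolipoproteins beside Apoe on chromosome 7 had overlapping groups. Apoc1, which hinders receptor uptake of remnants, read 103619, 106229 and 112283 in knockout liver and 108163, 98791 and 101073 in wild-type liver. Apoc2, the cofactor that lipoprotein lipase needs, read 26159, 27881 and 32497 in knockout liver and 32793, 32452 and 25794 in wild-type liver. For Apoc2 the lowest of the 6 values was in wild-type replicate 3 and the highest in wild-type replicate 1. The changes were 0.065 ± 0.077 for Apoc1 and -0.071 ± 0.12 for Apoc2 (limma, adjusted p = 0.825 and 0.885). Their 95% intervals ran from -7.07% to 17.7% and from -20.7% to 14.4%. The interval of Apoc1 ends near the lower end of that of Apoc3, and the difference between the 2 genes was not tested.

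Apoh, a phospholipid-binding plasma protein also known as beta-2-glycoprotein I, read 138773, 166764 and 152745 in knockout liver and 135609, 127196 and 141283 in wild-type liver. Knockout replicate 1 lay below wild-type replicate 3, and the change was 0.18 ± 0.087 (limma, adjusted p = 0.547). The intervals of the 14 changes and their positions after other scalings are drawn together in the plot of changes.

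**Figure D2:**
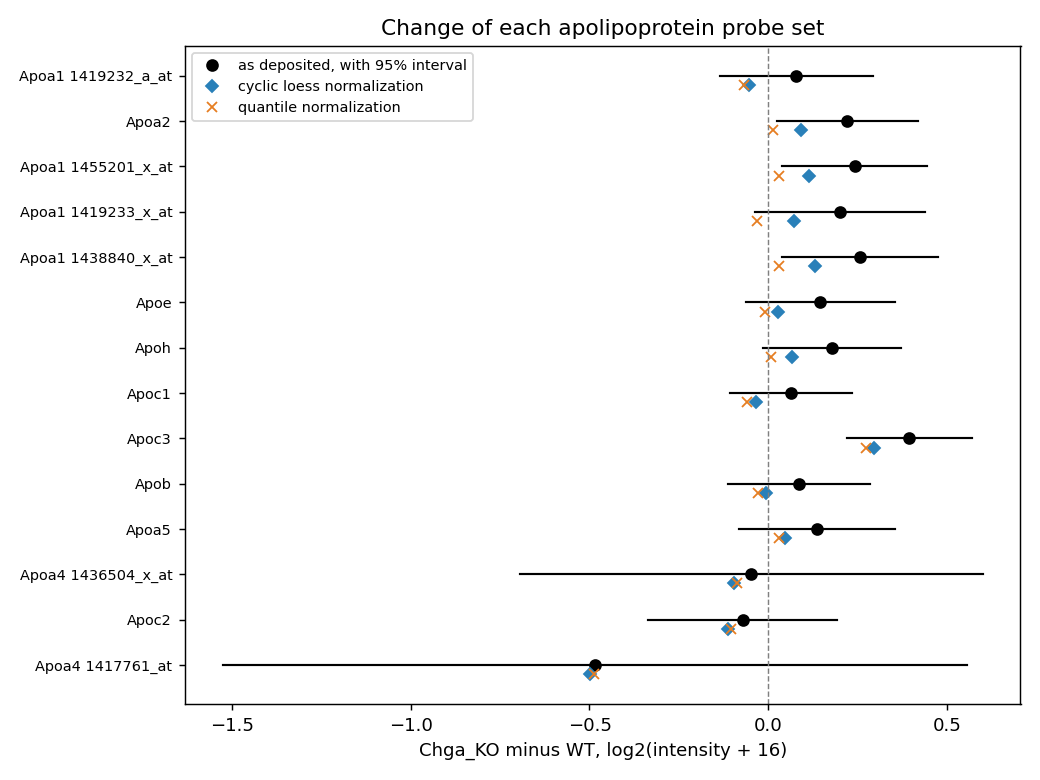
Knockout minus wild-type change on the log2(intensity + 16) scale for each of the 14 apolipoprotein probe sets, ordered by brightness, with 95% intervals of the limma fit (black) and the changes after cyclic loess (blue diamonds) and quantile normalization (orange crosses). Apoc3 keeps a change of 0.30 and 0.28 after these scalings, while the brightest Apoa1 probe set turns to -0.054 and -0.068.

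The small positive changes of the bright members were shared with other bright probe sets. Of the 91 other probe sets among the 100 brightest, 85 were higher in knockout liver, with a median change of 0.14 and 0 calls by limma (18 at an unadjusted p under 0.05). Genes of other proteins that hepatocytes secrete, 26 probe sets, had 19 positive and 7 negative changes, 0 calls (3 at an unadjusted p under 0.05) and a median of 0.066. Groups of the 91 were apart and higher in knockout in 19.8% of cases, against 7.14% of the members. From the brightest class to ranks 4001 to 8000 the median change declined, from 0.14 in these 91 to 0.078 at ranks 101 to 500, 0.043 at ranks 501 to 1000 and 0.0049 at ranks 1001 to 2000. It was -0.016 at ranks 2001 to 4000, -0.053 at ranks 4001 to 8000 and -0.028 in the dimmest class, ranks 8001 to 13576. In the same order of classes 93.4%, 74.9%, 63.5% and 51.3% of probe sets were higher in knockout liver, then 45.5%, 40.5% and 46.7% in the 3 dimmer classes. The plot of change against brightness shows most bright members close to this trend, with Apoc3 above it. Changes of the 91 ran from -0.21 to 0.57, a range that holds the 0.40 of Apoc3.

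**Figure D3:**
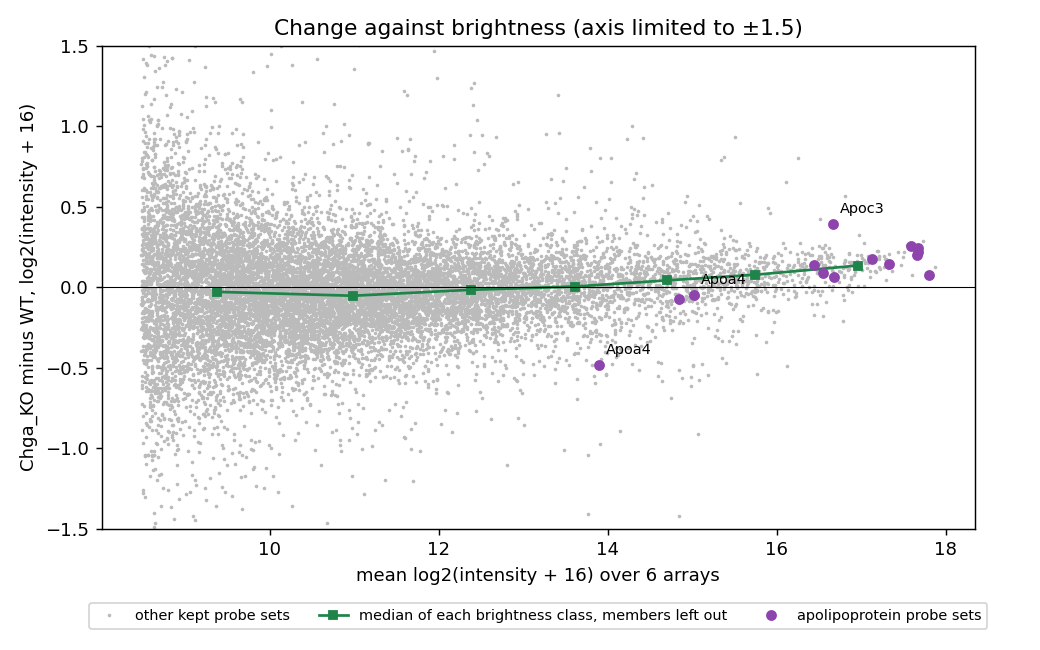
Knockout minus wild-type change against mean log2(intensity + 16) for 13576 kept probe sets (grey), with the 14 apolipoprotein probe sets (purple) and the median of each of 7 brightness classes without the members (green). The green line reaches 0.14 at the bright end, and Apoc3, at 0.40, lies above it; the vertical axis is limited to 1.5 either way.

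Within both groups the bright probe sets shared an order of arrays. Relative to each probe set's mean over the 6 arrays, the median of the 14 members was -0.048, 0.21 and 0.12 for knockout and -0.052, -0.17 and -0.038 for wild type. The same medians over the 91 other bright probe sets were -0.058, 0.15 and 0.12 in knockout and -0.059, -0.14 and 0.0070 in wild type. Knockout replicates 2 and 3 were thus high, wild-type replicate 2 was low, and knockout replicate 1 lay beside the wild-type arrays for both sets. The median over all kept probe sets stayed between -0.0089 and 0.034 in each array.

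**Figure D4:**
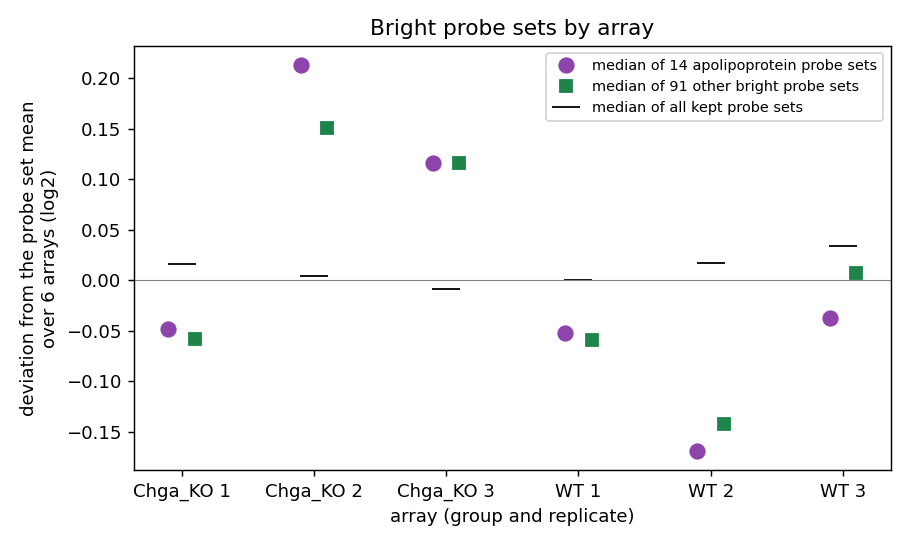
Median deviation from each probe set's own mean over 6 arrays (log2), per array, for the 14 apolipoprotein probe sets (purple), the 91 other bright probe sets (green) and all kept probe sets (black bars). Members and other bright probe sets are both high in knockout replicates 2 and 3 and low in wild-type replicate 2.

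Set against the median of the 91 other bright probe sets of its own array, and centred on the wild-type mean, Apoc3 stood at 0.29, 0.18 and 0.27 in knockout and at 0.095, 0.0067 and -0.10 in wild type. The groups remained apart on this scale, at 0.25 ± 0.059 in knockout and 0 ± 0.099 in wild type (SD, n = 3 each). After cyclic loess normalization, which reduces trends with intensity, 8 of 14 members were higher and 6 lower, with a median of 0.038. Of the 91 other bright probe sets, 61 were still higher after cyclic loess, with a median of 0.025. After quantile normalization 6 members were higher and 8 lower, with a median of -0.018. Of the 91, 46 were higher after quantile normalization, with a median of 0.00032. Apoc3 then stood at 0.28 ± 0.064 (limma, adjusted p = 0.118) after quantile normalization and at 0.30 ± 0.063 (limma, adjusted p = 0.0815) after cyclic loess. The changes of Apob, Apoc1 and the brightest Apoa1 probe set were negative after both of these normalizations, and those of Apoe and the third brightest Apoa1 probe set after quantile normalization alone.

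The brightest values were checked for a ceiling. In each array 1 probe set held the maximum, which was Fabp1 in 5 arrays and lay between 234849 and 269124 in knockout and between 208581 and 249394 in wild-type arrays. The maximum was 1.24 to 1.25 times the value ranked 10th in knockout arrays and 1.26 to 1.34 times in wild-type arrays. Among the 100 brightest values no 2 were equal in 5 of the arrays, and 2 were equal in knockout replicate 3. The within-group SD had a median of 0.13 log2 units over the members and 0.11 over the other bright probe sets, against 0.22 over all kept probe sets. Whether single probes were saturated at the scanner was not tested, since only summarised probe set values were used.

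Partner genes of lipoprotein metabolism were examined as 5 lists. Of 157 kept probe sets from these lists, 0 rose and 1 fell by limma with adjustment over all kept probe sets, 71 having a positive and 86 a negative change, with a median of -0.014. Over all kept probe sets, 6356 were higher and 7220 lower. At an unadjusted p under 0.05 (limma) were 25 of the 157, beside 9.97% of all kept probe sets. Groups were apart with knockout higher for 16 and lower for 13, beside 7.44% and 8.12% of all kept probe sets. The 1 call was Abcg8, whose product pumps sterols into bile, which read 3813, 4340 and 4556 in knockout liver and 7722, 6350 and 7670 in wild-type liver. Abcg8 fell by 0.77 ± 0.13 on the log2 scale (limma, adjusted p = 0.0369), and its groups did not overlap. The call was lost with the replicate number as a block (adjusted p = 0.115), without the intensity trend of the fit (adjusted p = 0.238) and without knockout replicate 1 or 2 (adjusted p = 0.0659 and 0.105) or wild-type replicate 1 or 3 (adjusted p = 0.164 and 0.147), all by limma. The change stayed negative under these alternatives, between -0.70 and -0.79.

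Other apolipoproteins, 12 kept probe sets of 7 genes, had 0 calls (1 at an unadjusted p under 0.05), 6 positive and 6 negative changes and a median of -0.00099. Clu, or apolipoprotein J, was as bright as many members by 3 of its 4 probe sets, each near the 99.7th percentile, whose changes were -0.015, 0.13 and 0.17. Apoc4, the remaining gene of the chromosome 7 cluster, averaged 68632 ± 6123 in knockout and 63777 ± 5031 in wild-type liver (SD, n = 3 each), a change of 0.10 ± 0.096 (limma, adjusted p = 0.762). Apon, or apolipoprotein N, stood at 0.11 ± 0.11 and Apool, whose product is a protein of the mitochondrial inner membrane, at -0.098 ± 0.12, both with overlapping groups (limma, adjusted p = 0.791 and 0.831).

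Genes of particle assembly and Apob handling, 36 kept probe sets, had 0 calls by limma (6 at an unadjusted p under 0.05) and a median of 0.040. Mttp, the transfer protein that loads lipid onto Apob, read 18575, 19524 and 19011 in knockout and 18945, 17971 and 15966 in wild-type liver, with overlapping groups (0.11 ± 0.096, limma, adjusted p = 0.738). The groups of the dimmer Mttp probe set were apart, with 11753, 11860 and 11726 in knockout and 10851, 9992 and 9536 in wild-type liver, a change of 0.22 ± 0.097 that did not pass (limma, adjusted p = 0.496). The brighter probe set of the endoplasmic reticulum chaperone Hspa5 had the smallest p of the list, at 0.52 ± 0.096 (limma, adjusted p = 0.0504), and its groups were apart. The dimmer Hspa5 probe set stood at 0.28 ± 0.10, also with groups apart (limma, adjusted p = 0.374). Rbm47, a cofactor of Apob mRNA editing, stood at -0.85 ± 0.18, and Surf4, a cargo receptor for lipoproteins, at 0.29 ± 0.10, where its 4 other probe sets lay between 0.039 and 0.12.

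Receptor genes, 29 kept probe sets, had 0 calls by limma (6 at an unadjusted p under 0.05) and a median of 0.012. The remnant receptor Lrp1 stood at -0.19 ± 0.12 and the high density lipoprotein receptor Scarb1 at -0.22 ± 0.11, both with overlapping groups (limma, adjusted p = 0.641 and 0.581). Of the 2 other Scarb1 probe sets, 1 overlapped at -0.19 ± 0.12, and the groups of the other were apart, with 8383, 9010 and 9551 in knockout and 12591, 10130 and 10645 in wild-type liver (-0.30 ± 0.11, limma, adjusted p = 0.408). Cd36, a fatty acid and lipoprotein receptor, was at 1.42 ± 0.26 (limma, adjusted p = 0.0504). The sorting receptor Sorl1 read 766, 122 and 446 in knockout and 1726, 1845 and 1586 in wild-type liver. Its change was -2.24 ± 0.50 (limma, adjusted p = 0.102), at the 56.2th percentile by brightness. The remnant-binding proteoglycan Sdc1 was at 0.37 ± 0.085 (limma, adjusted p = 0.116), while its 3 other probe sets lay between -0.0045 and 0.016.

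Genes of remodelling in plasma, 22 kept probe sets, held the call of Abcg8, 7 probe sets at an unadjusted p under 0.05 and a median of 0.0093. Angptl8, an inhibitor of lipoprotein lipase known to rise with feeding, read 4068, 3256 and 3449 in knockout and 687, 1737 and 1621 in wild-type liver. It was higher in each knockout array, at 1.51 ± 0.30, and missed the threshold (limma, adjusted p = 0.0635). Pltp, the phospholipid transfer protein, was at 1.13 ± 0.31 (limma, adjusted p = 0.200), with its highest value, 15409, in knockout replicate 3, the array in which Apoa4 was lowest.

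Regulators of apolipoprotein genes, 58 kept probe sets, had 0 calls by limma (5 at an unadjusted p under 0.05), 17 positive and 41 negative changes and a median of -0.11. The list had a median percentile of 73.6 by brightness over 66 probe sets. In the brightness class of ranks 4001 to 8000, 40.5% of probe sets were higher in knockout liver. Hnf4a, a main activator of most of these genes in hepatocytes, read 32411, 33686 and 29280 in knockout and 30228, 27425 and 33192 in wild-type liver (0.072 ± 0.10, limma, adjusted p = 0.851). The dimmer Hnf4a probe sets stood at 0.0085, -0.13 and -0.21, all with overlapping groups. Ppara, the fatty acid receptor whose activation lowers Apoc3 in rodents, averaged 27035 ± 4920 in knockout and 39396 ± 2788 in wild-type liver (SD, n = 3 each), a change of -0.56 ± 0.13 that did not pass (limma, adjusted p = 0.113) with groups that did not overlap. The coactivator Ppargc1b stood at -0.49 ± 0.16 and the E-box binding factor Usf1 at -0.66 ± 0.28 (limma, adjusted p = 0.306 and 0.463). This Usf1 probe set was at the 51.0th percentile by brightness. The dimmer Usf1 probe set, at the 44.6th, stood at -0.49 ± 0.36 with overlapping groups (limma, adjusted p = 0.698). Creb3l3, an activator of Apoa4 and Apoc2 in mice, stood at -0.11 ± 0.093 with overlapping groups. It read 24308, 25791 and 26581 in knockout and 30132, 26565 and 26098 in wild-type liver. Its part in the Apoa4 values was not tested.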

How the data were processed

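Liver RNA of 6 mice was measured on 6 Affymetrix arrays, labelled as biotinylated cRNA per the labels' protocols. The submitters' processing notes name GCOS 1.2. The authors deposited probe set intensities on a linear scale, and how they scaled them is not stated in the sources used here. Of 22690 probe sets 64 controls were left out. Platform annotation gave 20380 probe sets 1 gene, 691 several and 1555 none. The 60% with the highest mean log2(intensity + 16) were kept and tested with limma 3.58.1 in R 4.3.3 (lmFit, eBayes with intensity trend, all 6 arrays, no covariate), with Benjamini-Hochberg adjustment over all kept probe sets at 0.05. A gene with several probe sets was led by its brightest. From each partner list the calls and the 3 genes with the smallest p were named, with Mttp, Lrp1, Scarb1 and Hnf4a always; 1 gene of this rule is not reported here. Creb3l3, Clu, Pafah1b2, Zpr1 and the brightness classes were chosen after values were seen. The comparisons between probe sets of Apoa1 and between those of Apoa4 were not among the planned tests. Promoter sequences were from RefSeq. The members and lists were chosen with earlier results of these data known. The fit was tested on simulated data. Replicate numbers did not pair the arrays: deviations of same-numbered arrays from their group means correlated between -0.065 and -0.059. The number of arrays limits the precision.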

Additional observations from a re-analysis of the deposited data

How the results depend on the processing

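With every alternative tried, 0 of 14 apolipoprotein probe sets passed, and Apoc3 kept its positive sign. The median change of the members was -0.018 after quantile normalization, 0.038 after cyclic loess and 0.094 to 0.21 with 1 array left out (lowest without wild-type replicate 2, highest without knockout replicate 1). The count over all kept probe sets was 82 with array weights, 82 with a pseudocount 16 times as large, 7 without the intensity trend and 21 to 48 with 1 array left out (23 without wild-type replicate 1 and 21 without wild-type replicate 3). With the replicate number as a block, a replicate block that the arrays did not bear out as pairing, it was 27, and the partner genes had 0 calls. Partner gene calls were 2 with array weights, cyclic loess, median centring or quantile normalization, 3 with a pseudocount of 64 or the upper 40% kept, 5 with a pseudocount 16 times as large, 0 without the trend and 0 to 2 with 1 array left out (0 without wild-type replicate 3, 2 without knockout replicate 3 or wild-type replicate 2).

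Signs turned for 7 of the 14 members. The brightest Apoa1 probe set was at -0.068 after quantile normalization and -0.054 after cyclic loess, and the third brightest at -0.030 after quantile normalization. Quantile normalization gives equal ranks equal values. The brightest Apoa1 probe set ranked 2 in each wild-type array and 2, 3 and 4 in the knockout arrays, so its -0.068 reflects these ranks alone. Apob was at -0.027 and -0.0071, and Apoc1 at -0.059 and -0.033, after quantile normalization and cyclic loess in that order. Apoe was at -0.0093 after quantile normalization. The brighter Apoa4 probe set was at 0.065 with array weights and from -0.35 to 0.37 with 1 array left out, and the dimmer one from -0.91 to 0.22. Apart from the scalings and the smaller number of arrays, which are part of these alternatives, the cause was not tested.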

Other observations

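The genes next to both apolipoprotein clusters were read for comparison, by the 5 nearest measured genes on each side, with gene order from the RefSeq table of GRCm38.p6. Around the chromosome 9 cluster, 0 of 10 neighbours passed limma with adjustment over all kept probe sets, 0 had groups that did not overlap, and the median log2 change was 0.013. The nearest measured genes were Pafah1b2, a subunit of an enzyme that breaks down platelet-activating factor, at 0.49 ± 0.23 (SE, n = 3 per group), and Zpr1, a zinc finger protein gene, at -0.052 ± 0.14. Around the chromosome 7 cluster, 0 of 10 passed and 3 had groups that did not overlap, beside 15.6% of all kept probe sets. Bcl3, a regulator of NF-kappa-B, read 1085, 1147 and 1133 in knockout liver and 855, 688 and 686 in wild-type liver, and Gemin7 was higher in each knockout array at 0.17 ± 0.15. Clasrp read 1267, 443 and 955 in knockout liver and 1396, 1672 and 1596 in wild-type liver. None of the 3 passed (limma, adjusted p = 0.336, 0.761 and 0.367).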
